A study of Mus musculus with 10 samples.

Results

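TGF-β ligands, receptors and signalling SMADs were examined in primary mouse cardiac fibroblasts by CUT&Tag, where antibody-bound chromatin is cut and tagged in place by a tethered transposase before sequencing. The 10 genes were Tgfb1, Tgfb2, Tgfb3, Tgfbr1, Tgfbr2, Tgfbr3, Eng, Smad2, Smad3 and Smad4, of 22473 genes named in the tables, and every listed region whose assigned gene was a member was kept. This gave 31 of 74751 regions for lactylated lysine 9 of histone H3 (H3K9lc), 94 of 72990 for c-JUN (JUN), 48 of 58633 for SMAD3 and 55 of 68767 for NFATC2, each compared between a TGF library and a siHK1 library. It also gave 29 of 65853 regions in a table of H3K9lc that compares a control library (NC) with the TGF library. The cells in the TGF and siHK1 libraries had all received TGF-β. Those of the siHK1 libraries had first been transfected with siRNA against hexokinase 1 (HK1), an enzyme that phosphorylates glucose as it enters the cell's metabolism. The label of NC gives its treatment as none. Its title names no antibody, and it was read as H3K9lc from its description. No strain, sex, age, dose or time is in the labels. Each combination of condition and antibody had 1 library, so no value has a replicate error, no difference was tested, and every comparison is between libraries. The data hold no RNA, so the knockdown of HK1 was not checked here.

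TGF-β ligands are secreted in a latent form and, once released, bind the type II receptor encoded by Tgfbr2, which recruits and phosphorylates the type I receptor encoded by Tgfbr1. Tgfbr3 (betaglycan) and Eng (endoglin) are co-receptors that present or modulate ligand. The activated receptor phosphorylates SMAD2 and SMAD3, which join SMAD4 and enter the nucleus, where they bind DNA together with partners such as the AP-1 factor JUN. In cardiac fibroblasts this pathway is best known for driving the change to contractile, matrix-producing myofibroblasts. H3K9lc is a histone mark linked to cellular lactate.

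Sequences of 9 windows are shown to give examples of the regions described here. They are the only JUN region of Tgfb1 and of Eng, the JUN regions with the lowest ratio of siHK1 over TGF at Tgfb2, Tgfb3 and (among intervals clear of 0) Tgfbr1, the largest JUN region of Tgfbr3, the largest intronic one of Tgfbr2 and the largest promoter one of Smad3, and the SMAD3 region of Smad3 with the highest ratio among those with at least 10 scaled reads. The Tgfbr1 region across the start site, which holds most JUN reads of that gene, is not among them. Each is the central 200 bp of a listed region on GRCm38, read on the plus strand from the RefSeq assembly GRCm38.p6. A region's centre is not a measured summit. Capitals mark the letters TGANTCA (AP-1), CAGAC (SMAD) or TGGAAA (NFAT) on either strand, so a site on the other strand reads as its reverse complement. The Tgfb1 window lies in the JUN region chr7:25689068-25689936, 141 bp inside an annotated transcript start, and holds none of these letters. The Tgfb2 window lies in the JUN region chr1:186719001-186719271, 13012 bp upstream, and holds 1 AP-1 match and 2 overlapping SMAD matches. The Tgfb3 window is from the JUN region chr12:86079089-86079531, 48 bp upstream of the start site, and holds 1 SMAD and 1 NFAT match. The Tgfbr1 window is from the JUN region chr4:47350971-47351187, 2035 bp upstream, with 2 SMAD matches and 1 NFAT match. The Tgfbr2 window is from the intronic JUN region chr9:116152472-116153562 and holds 1 AP-1 match. The Tgfbr3 window is from the JUN region chr5:107087067-107088085, which is intergenic and 44838 bp from the assigned start, and holds none. The Eng window is from the JUN region chr2:32672005-32672410, 433 bp upstream of a start site, with 1 AP-1 match and 3 SMAD matches. The first Smad3 window is from the JUN region chr9:63745951-63746787 with 1 AP-1 and 1 SMAD match. The second is from the SMAD3 region chr9:63843612-63844427, 85618 bp upstream, with none.
Tgfb1 promoter: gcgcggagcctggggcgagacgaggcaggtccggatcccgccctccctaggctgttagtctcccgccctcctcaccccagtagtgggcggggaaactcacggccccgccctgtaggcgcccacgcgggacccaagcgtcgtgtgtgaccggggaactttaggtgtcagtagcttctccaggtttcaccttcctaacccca
Tgfb2 upstream: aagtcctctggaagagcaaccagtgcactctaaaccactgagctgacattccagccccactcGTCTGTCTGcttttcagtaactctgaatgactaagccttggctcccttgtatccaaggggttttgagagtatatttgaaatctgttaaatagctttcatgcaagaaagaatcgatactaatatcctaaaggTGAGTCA
Tgfb3 promoter: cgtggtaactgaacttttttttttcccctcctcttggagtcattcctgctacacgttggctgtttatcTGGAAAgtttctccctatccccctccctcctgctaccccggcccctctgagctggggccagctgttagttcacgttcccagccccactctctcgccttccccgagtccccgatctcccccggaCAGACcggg
Tgfbr1 upstream: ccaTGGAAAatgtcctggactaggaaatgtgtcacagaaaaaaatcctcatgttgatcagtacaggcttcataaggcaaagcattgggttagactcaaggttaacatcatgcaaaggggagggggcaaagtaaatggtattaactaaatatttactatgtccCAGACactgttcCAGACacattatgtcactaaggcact
Tgfbr2 intron: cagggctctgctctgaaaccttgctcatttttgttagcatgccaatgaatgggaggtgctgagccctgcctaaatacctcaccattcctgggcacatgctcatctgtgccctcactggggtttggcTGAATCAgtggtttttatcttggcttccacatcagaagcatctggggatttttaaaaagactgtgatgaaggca
Tgfbr3 downstream: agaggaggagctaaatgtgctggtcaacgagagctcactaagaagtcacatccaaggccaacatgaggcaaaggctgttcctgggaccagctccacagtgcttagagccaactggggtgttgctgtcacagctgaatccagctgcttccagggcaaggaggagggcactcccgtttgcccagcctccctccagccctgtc
Eng promoter: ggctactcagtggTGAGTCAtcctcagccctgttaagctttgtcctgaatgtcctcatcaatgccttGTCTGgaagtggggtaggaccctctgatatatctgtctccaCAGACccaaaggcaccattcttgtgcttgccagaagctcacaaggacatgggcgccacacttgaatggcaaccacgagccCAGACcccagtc
Smad3 promoter: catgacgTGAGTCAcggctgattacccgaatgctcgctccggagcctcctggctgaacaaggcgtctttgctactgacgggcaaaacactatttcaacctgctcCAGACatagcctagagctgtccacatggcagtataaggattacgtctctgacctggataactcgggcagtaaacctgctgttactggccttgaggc
Smad3 upstream: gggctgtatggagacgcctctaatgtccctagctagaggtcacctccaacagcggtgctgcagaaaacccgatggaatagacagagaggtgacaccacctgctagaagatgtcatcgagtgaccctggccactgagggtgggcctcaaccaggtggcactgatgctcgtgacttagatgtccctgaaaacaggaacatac

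Over all member regions of the JUN table, 31 of 94 (33.0%, 95% exact binomial interval 23.6 to 43.4) held the AP-1 letters in the central 200 bp, against 29.3% of all JUN regions. The SMAD letters stood in 44.7% of the member JUN regions and 44.5% of all, and the NFAT letters in 17.0% and 17.7%. Among the SMAD3 regions, 6 of 48 members (12.5%, 4.73 to 25.2) held AP-1 letters against 6.69% of all, 13 held SMAD letters (27.1% against 38.2%) and 2 held NFAT letters (4.17% against 15.8%). None of the 55 NFATC2 member regions held AP-1 letters, which allows a share of up to 6.49%, the upper end of its interval, against 6.66% of all NFATC2 regions. SMAD letters stood in 38.2% of the NFATC2 member regions and in 38.2% of all, and NFAT letters in 12.7% and 16.5%. The 31 tested JUN member regions with AP-1 letters had a median of 90.9 scaled reads over both libraries, and the 61 without had 49.0. Over all tested JUN regions these medians were 65.5 and 46.9. The median ratio was -0.01 in both sets of member regions. A match is a run of letters and was not tested as a binding site.

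All libraries were read only through the listed regions, since whole library depths are not given in the sources used here. Reads over these regions ranged from 354599 to 4215447 among the 8 siHK1 and TGF libraries and were 115572 in NC. The siHK1 library of each pair had fewer reads than its TGF partner, by 1.41-fold for SMAD3 to 1.86-fold for JUN. Ratios are log2((reads + 0.5)/library total), siHK1 over TGF, so a loss or gain common to all regions cannot be seen. Without that scaling the median of all regions moved by -0.81 for H3K9lc, -0.89 for JUN, -0.49 for SMAD3 and -0.70 for NFATC2. Regions or genes were tested against a 2-fold threshold when both libraries together gave at least 10 scaled reads, each library being brought to the mean of the pair's totals. Intervals are exact 95% binomial intervals of counting error only. PCR copies are not independent molecules. As a check of the labelled cell type, JUN reads of the TGF library lay at promoters of 7 of 7 fibroblast marker genes (854 reads), 1 of 5 cardiomyocyte (84 reads, all at Myh6), 3 of 4 endothelial (132 reads) and 2 of 4 leukocyte markers (270 reads, 204 of them at Csf1r). Per kb of these promoter regions the reads were 111, 51.9, 88.4 and 128 in that order, so the leukocyte list had the most. Tnnt2, Actc1, Ryr2, Nppa, Kdr, Ptprc and Cd3e had no listed JUN promoter region. H3K9lc had a listed promoter region at none of the 7 fibroblast and 4 leukocyte markers, at 2 of 5 cardiomyocyte markers (8 reads, at Myh6 and Ryr2) and at 1 of 4 endothelial ones (64 reads, at Tie1). Occupancy at a promoter is not expression, and the part of other cells in the values below was not tested.

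Of the 3 factors, JUN gave the most reads at the 10 genes, as it did over all listed regions. In TGF those totals were 4215447 for JUN, 563562 for SMAD3 and 575706 for NFATC2. All 10 genes had at least 1 region of each factor, as had 75.5% of all genes for JUN, 74.0% for SMAD3 and 77.3% for NFATC2. Member regions took 0.150% of all JUN reads in both the TGF library (6318 reads) and the siHK1 library (3417 reads). In reads per kb of listed region, the TGF library was highest at Smad3 (195), Eng (163) and Tgfbr3 (131) and lowest at Tgfb3 (57.7) and Smad4 (58.6). The siHK1 library had the same 3 genes at the top, with 109, 91.1 and 77.0 reads per kb. Over all JUN regions the TGF library had 112 reads per kb and the siHK1 library 60.3.

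**Figure D1:**
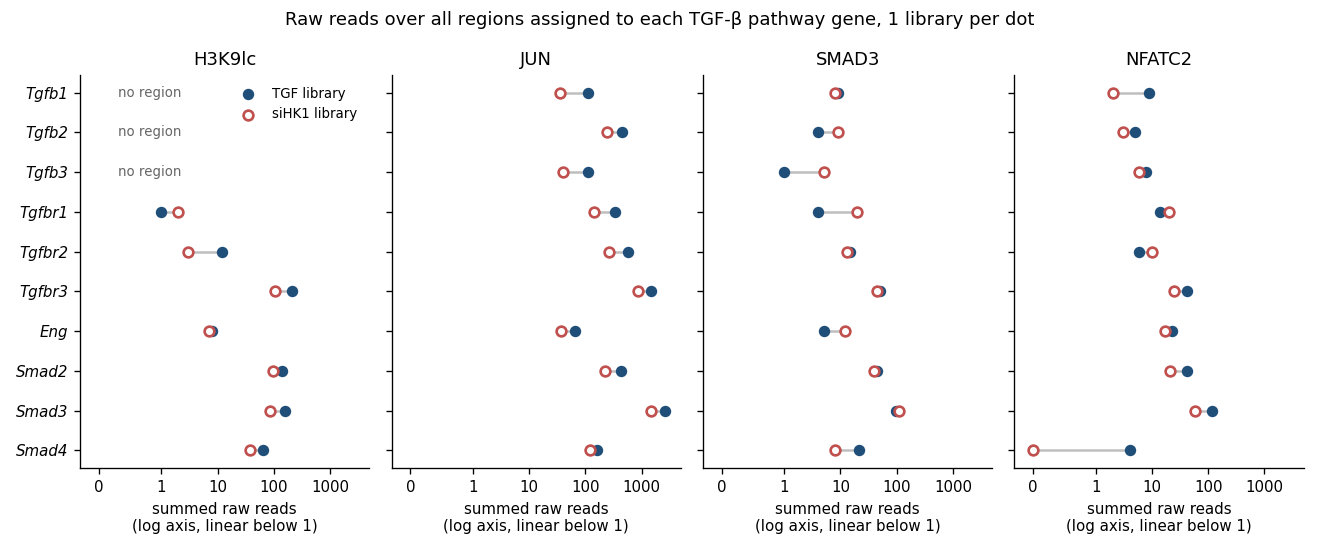
Raw reads summed over all regions assigned to each gene, 1 panel per antibody, with the TGF library as a filled dot and the siHK1 library as an open dot on a log axis that is linear below 1 read. Tgfb1, Tgfb2 and Tgfb3 had no H3K9lc region, and Smad3 had the most JUN, SMAD3 and NFATC2 reads (2636, 98 and 115 in TGF).

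JUN over the genes of the ligands differed between libraries by more than counting error at Tgfb1 and Tgfb3, whereas the interval of Tgfb2 included 0. Tgfb1, the ligand most studied in fibrosis (chr7:25687002-25705077, plus strand), had 1 JUN region, with 110 reads in TGF and 35 in siHK1. Its ratio was -0.75 (interval -1.35 to -0.20), or 1.68-fold lower in siHK1. Tgfb3 (chr12:86056745-86079041, minus strand) had 6 JUN regions with 113 reads in TGF and 40 in siHK1, a ratio of -0.59 (-1.16 to -0.07). The region 48 bp upstream of the start site, shown above, had 29 reads in TGF and 3 in siHK1 (ratio -2.18, -4.74 to -0.69), and the sum of the other 5 had a ratio of -0.28 (-0.89 to 0.28). The 2 regions that lie in introns of the gene Ttll5 had 46 and 24 reads, and without them the 4 regions in Tgfb3 or the 3 kb before it had 67 and 16 reads, a ratio of -1.14 (-2.06 to -0.37), which is past 2-fold. The other promoter region of Tgfb3 had 18 and 7 reads, and its largest region, one of those in Ttll5 and 39.5 kb away, had 25 and 14 reads (ratio 0.08, -1.0 to 1.06). Tgfb2 (chr1:186622792-186705989, minus strand) had 12 JUN regions with 456 and 242 reads, a ratio of -0.02 (-0.25 to 0.21). Its largest region, annotated as a promoter 2.35 kb inside a transcript, had 110 and 78 reads (0.40, -0.04 to 0.83), and the region nearest the start had 32 and 12 (-0.49, -1.62 to 0.47). The region 13012 bp upstream of Tgfb2 had 30 and 6 reads, a ratio of -1.34 (-2.99 to -0.14). Of the 17 ligand regions with enough reads, this one and the Tgfb3 promoter were 2-fold or more lower (11.8%, against 9.46% of all JUN regions), and none was 2-fold or more higher.

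JUN at the signalling receptors was lower in siHK1 by less than 2-fold when summed. Tgfbr1 (chr4:47353222-47414931, plus strand) had 338 reads in TGF and 143 in siHK1 over 7 regions (ratio -0.35, -0.64 to -0.06). The region across its start site held 220 and 82 of these (-0.53, -0.92 to -0.16), and the ratio was -0.05 without it. The neighbouring region 2035 bp upstream had 38 and 8 reads (-1.29, -2.67 to -0.23). Farther regions of Tgfbr1 had ratios on both sides of 0, from 14 and 2 reads (-1.64, -5.10 to 0.21) to 5 and 8 reads (1.52, -0.22 to 3.53). Tgfbr2 (chr9:116084293-116175360, minus strand) had 566 and 259 reads over 9 regions (-0.23, -0.45 to -0.02). Its region across the start site had 169 and 78 reads (-0.22, -0.63 to 0.17), the intronic region shown above had 135 and 74 (0.03, -0.40 to 0.44), and a second intronic region 75.7 kb from the start had 28 and 5 (-1.48, -3.32 to -0.20).

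The summed ratios of the co-receptors were slightly above 0, with intervals that included it. Tgfbr3 (chr5:107106570-107289629, minus strand) had 1441 JUN reads in TGF and 846 in siHK1 over 20 regions (0.12, -0.0004 to 0.25). The region across its start site had 26 reads in TGF and 35 in siHK1, more in siHK1 even as raw reads (ratio 1.31, 0.55 to 2.11). Its largest region, intergenic and 44.8 kb from the assigned start, had 470 and 246 reads (-0.04, -0.27 to 0.18). A small intronic region 27.3 kb upstream of the nearest Tgfbr3 start had 2 and 7 reads (2.48, 0.31 to 6.0). Eng (chr2:32646595-32682669, plus strand) had 1 JUN region with 66 and 37 reads (0.07, -0.56 to 0.66).

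Among the SMAD genes, Smad4 alone had a summed JUN ratio whose interval was clear of 0. Smad4, the partner shared with BMP signalling (chr18:73639009-73703780, minus strand), had 162 and 123 reads over 5 regions (0.50, 0.14 to 0.84), a ratio that is -0.40 without scaling. Its reads at the start site were 22 and 13 (0.16, -0.98 to 1.19), while an intronic region had 68 and 57 (0.64, 0.10 to 1.17) and a region 4467 bp upstream had 7 and 18 (2.19, 0.93 to 3.76). Smad2 (chr18:76241580-76310963, plus strand) had 430 and 220 reads over 8 regions (-0.07, -0.32 to 0.16), with 64 and 35 across the start site (0.03, -0.62 to 0.64) and 93 and 45 in its largest region, 280 kb away (-0.15, -0.70 to 0.37). Smad3 (chr9:63646767-63757994, minus strand) had 25 JUN regions with 2636 and 1472 reads (0.05, -0.04 to 0.14). Its largest, in an intron 11049 bp upstream of the assigned start, had 417 and 274 reads (0.29, 0.06 to 0.51). The promoter-annotated region shown above had 380 and 161 (-0.34, -0.62 to -0.08), and the region across a start site had 57 and 44 (0.52, -0.08 to 1.11). A pair of small regions 85.4 and 120 kb upstream of Smad3 had 3 and 9 reads (2.33, 0.47 to 5.0) and 2 and 7 reads (2.48, 0.31 to 6.0).

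**Figure D2:**
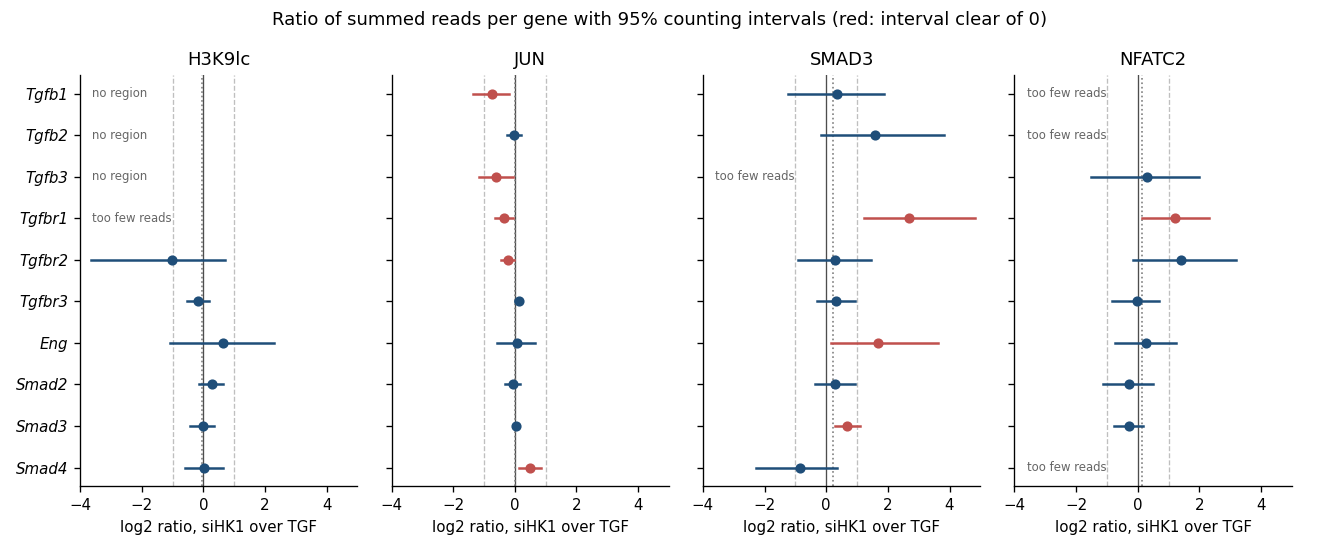
Log2 ratio of summed reads, siHK1 over TGF, for each gene in 4 panels by antibody, with 95% counting intervals, red where the interval is clear of 0, dashed lines at 2-fold, a dotted line at the median of all genes, and "too few reads" for genes under 10 scaled reads. The JUN intervals of Tgfb1, Tgfb3, Tgfbr1 and Tgfbr2 lie below 0 and that of Smad4 above it, and the SMAD3 ratio of Tgfbr1 is the highest plotted.

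In counts, 92 of 94 JUN member regions had enough reads. Of these, 6 were 2-fold or more lower in siHK1 and 8 were 2-fold or more higher, against 9.46% lower and 6.68% higher over all JUN regions. Without scaling these counts were 43 and 4, against 44.8% and 1.27% of all. An interval clear of no change was found for 4 of the lower and 5 of the higher regions, and 9.16% of all regions passed 2-fold with such an interval. The member regions had a median ratio of -0.01 against -0.03 over all. A peak was marked by the authors only in TGF at 36 JUN member regions (38.3% against 38.1% of all), only in siHK1 at 12 (12.8% against 12.1%) and in both at 46 (48.9% against 49.7%). A mark in 1 library does not mean that the other had no reads. The region across the Tgfbr1 start site, with 220 and 82 reads, was marked only in TGF. Summed per gene over all assigned regions, none of the 10 passed 2-fold, against 3.36% of all genes lower and 2.88% higher. The intervals of 5 of 10 genes were clear of 0, against 22.0% of all genes, and genes with more reads have narrower intervals.

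The JUN regions annotated as promoter had a lower summed ratio than the other member regions, a difference that was not tested. The 22 promoter regions had 1686 reads in TGF and 803 in siHK1 (ratio -0.18, -0.30 to -0.06), the other 72 had a ratio of 0.07 (-0.003 to 0.14), and all promoter regions of the table had 0.003. By gene, promoter ratios were -1.29 (-2.49 to -0.34) for Tgfb3, -0.75 for Tgfb1, -0.62 (-0.99 to -0.28) for Tgfbr1 and -0.22 for Tgfbr2, and from -0.17 to 0.19 for Smad3, Smad2, Smad4, Eng and Tgfb2. Tgfbr3 stood apart at 1.31. Without Tgfbr1 the summed promoter ratio was -0.11 (-0.24 to 0.02), which reaches 0, and without any other single gene it stayed between -0.23 and -0.14.

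**Figure D3:**
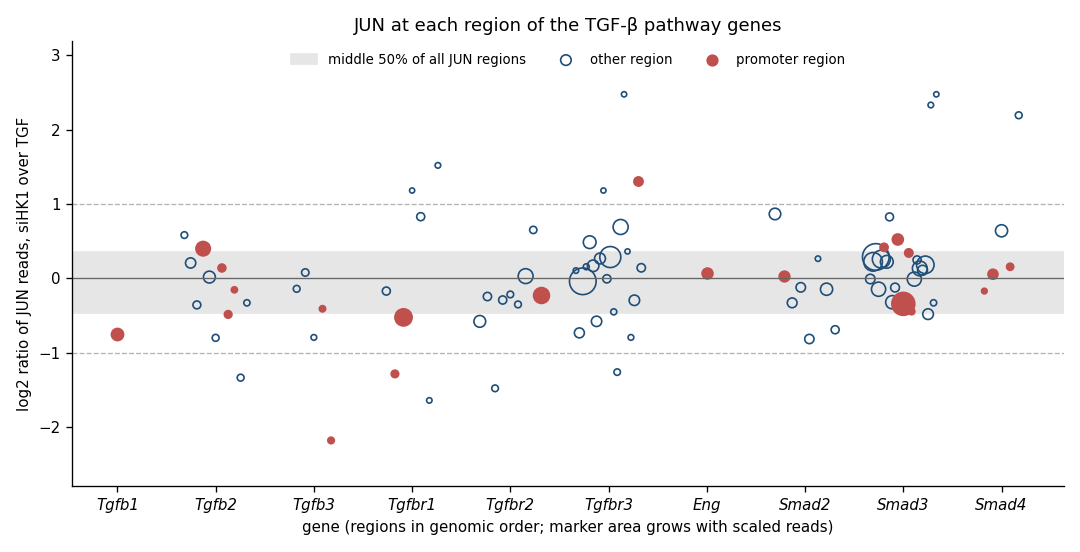
Log2 ratio of JUN reads, siHK1 over TGF, at each tested member region, grouped by gene and in genomic order, with promoter regions filled, marker area growing with scaled reads, dashed lines at 2-fold and the middle 50% of all JUN regions shaded. The largest markers, at Tgfbr3 and Smad3, lie near 0, while the Tgfb3 promoter region is lowest at -2.18 and the Tgfbr3 promoter region sits at 1.31.

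SMAD3 reads at the genes of its own pathway were few, and their share of the library was higher in siHK1. Member regions held 252 of the TGF library's reads (0.0447%, 0.0394 to 0.0506) and 269 of the siHK1 library's (0.0673%, 0.0595 to 0.0758). Over all tested SMAD3 regions the median ratio was also above 0, at 0.35, beside 0.41 for the members. A peak was marked only in TGF at 15 member regions (31.3% against 47.2% of all), only in siHK1 at 29 (60.4% against 47.7%) and in both at 4 (8.33% against 4.98%).

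Tgfbr1 had the clearest SMAD3 difference of the members, with 4 reads in TGF and 20 in siHK1 over 3 regions (ratio 2.68, 1.24 to 4.83). Of these, 3 and 14 fell in the region chr4:47352928-47353572 across the Tgfbr1 start site (2.55, 0.88 to 5.16). Tgfbr2 had 15 and 13 reads over 2 intronic regions that pointed opposite ways. The region 22.1 kb from the start, inside the JUN region shown above, had 2 and 9 reads (2.42, 0.39 to 5.91), and the one 62.7 kb away had 13 and 4 (-1.09, -3.28 to 0.49). Tgfbr3 had 50 and 44 reads over 6 regions (0.31, -0.31 to 0.92), with 20 and 30 in the large intergenic region that also carried the most JUN reads (1.07, 0.22 to 1.97), and the sum of the others had a ratio of -0.58. Eng had 5 and 12 reads over 2 regions (1.68, 0.15 to 3.62), of which 4 and 6 lay 707 bp upstream of a start (1.03, -1.0 to 3.35).

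Each ligand had at most 9 SMAD3 reads in a library. Tgfb1 had 9 reads in TGF and 8 in siHK1 at its promoter (0.33, -1.25 to 1.87), in a region of 264 bp, so that per kb of listed region it was the highest of the members, with 34.1 and 30.3. Tgfb2 had 4 and 9 reads over 2 regions (1.57, -0.18 to 3.82), and neither region alone had 10 scaled reads. Tgfb3 had 1 and 5 reads in 1 region, in an intron of Ttll5, and was too low to test. SMAD3 at Smad3 itself came to 98 reads in TGF and 111 in siHK1 over 18 regions (0.67, 0.27 to 1.08), or 0.18 without scaling. Its largest region, in the intron with the most JUN reads of the gene, had 16 and 19 reads (0.74, -0.29 to 1.80), and the region across a start site had 7 and 4 (-0.24, -2.53 to 1.66). The upstream regions at 38.1 and 85.6 kb had 7 and 16 reads (1.63, 0.33 to 3.21) and 3 and 15 reads (2.64, 1.0 to 5.25). Smad2 had 45 and 39 reads over 9 regions (0.29, -0.37 to 0.94). Its largest tested region, 128 kb away, had 11 reads in each library (0.49, -0.85 to 1.84), and the one 280 kb away had 2 and 10 (2.57, 0.59 to 6.05). Smad4 was the member with a summed ratio below 0, with 21 and 8 reads over 4 regions (-0.84, -2.28 to 0.34), of which 13 and 2 lay in 1 region annotated as promoter, 2676 bp upstream of a transcript start (-1.94, -5.40 to -0.06). Without that region the summed ratio of Smad4 was above 0.

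Of 48 SMAD3 member regions, 20 had enough reads, and 5 were 2-fold or more lower and 7 higher, against 15.2% and 33.1% of all tested regions. Scaled on peaks shared by both libraries the split was 6 lower and 5 higher, against 17.4% and 29.7% of all, and it was the same without scaling, against 28.0% and 20.2%. Counting intervals clear of no change were found for 1 lower and 6 higher member regions, against 23.1% of all tested regions in either direction. Per gene, Tgfbr1, Eng and Tgfb2 were 2-fold or more higher and none lower among 9 tested, against 22.4% higher and 11.3% lower of all genes. Over regions in the gene or the 3 kb before it alone, Smad4 was also past 2-fold, at -1.23. The interval was clear of 0 for Tgfbr1, Eng and Smad3, against 29.2% of all genes. The median of all tested genes was itself at 0.23, which lies inside the Eng interval (lower end 0.15).

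**Figure D4:**
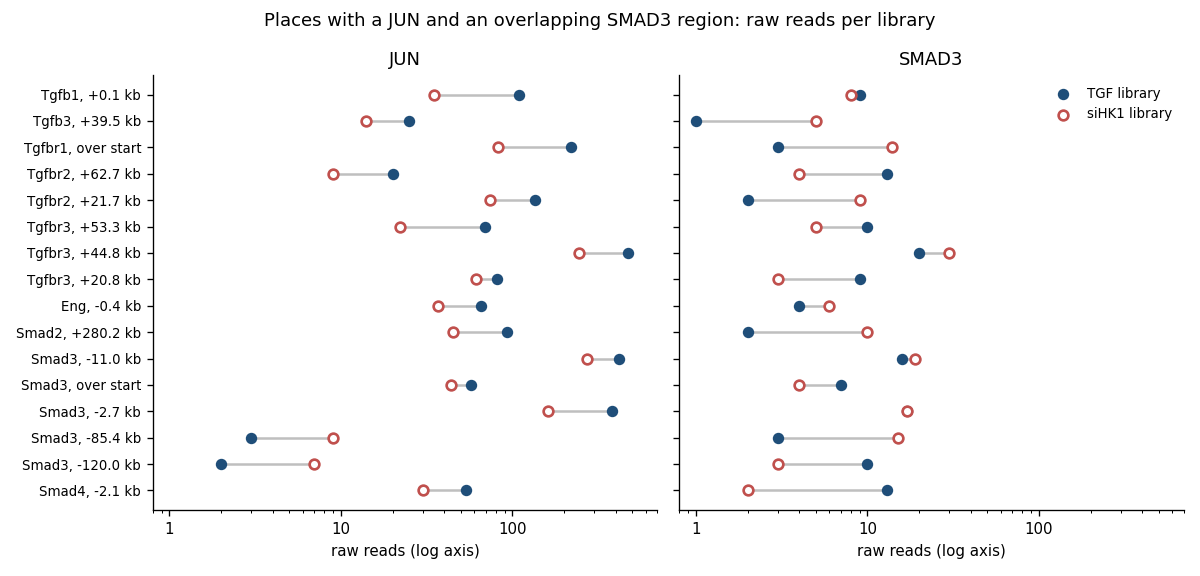
Raw reads of the JUN and SMAD3 libraries at the 16 JUN member regions that overlap a SMAD3 region, named by gene and distance to the assigned start site, on log axes, with TGF filled and siHK1 open. At the Tgfbr1 start site JUN goes from 220 reads to 82 and SMAD3 from 3 to 14, and at Smad3 -2.7 kb the SMAD3 libraries both have 17, so 1 dot hides the other.

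JUN and SMAD3 regions coincided at 16 of 94 JUN member regions (17.0% against 18.1% of all JUN regions), which is 16 of 48 SMAD3 member regions (33.3%, 20.4 to 48.4, against 23.0%). NFATC2 regions lay over 11 JUN member regions (11.7% against 15.4%), which is 11 of 55 NFATC2 member regions (20% against 16.7%). At 6 JUN member regions of 5 genes, Tgfb1, Tgfbr1, Tgfbr3, Eng and Smad3, all of the 3 factors had a region (6.38% against 7.50%). At the Tgfb1 promoter JUN had 110 reads in TGF and 35 in siHK1, SMAD3 had 9 and 8, and NFATC2 had 4 and 1. At the Tgfbr1 start site JUN had 220 and 82, SMAD3 had 3 and 14, and NFATC2 had 7 and 9. At the intergenic Tgfbr3 place JUN had 470 and 246, SMAD3 had 20 and 30, and NFATC2 had 21 and 7, and at a second one, 53.3 kb from the start, they had 69 and 22, 10 and 5, and 5 and 2. At Eng JUN had 66 and 37, SMAD3 had 4 and 6, and NFATC2 had 9 and 2. Smad3 at 2686 bp upstream had 380 and 161 JUN reads, 17 and 17 SMAD3 reads, and 12 and 8 NFATC2 reads.

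NFATC2, the calcineurin-dependent factor, gave 268 reads at member regions in TGF (0.0466% of the library) and 162 in siHK1 (0.0457%). Only 13 of 55 regions had enough reads. Of these, 5 were 2-fold or more lower and 3 higher, against 14.7% and 18.6% of all tested regions, and without scaling 7 were lower and 1 higher, against 37.2% and 6.98%. Their median ratio was -0.74, against 0.01 over all, with 8 below 0 and 5 above. All 5 lower regions lay outside the assigned gene and the 3 kb before it. Over all 55 regions, with no minimum of reads, the median was 0.17. A peak was marked only in TGF at 28 regions (50.9% against 42.1% of all), only in siHK1 at 26 (47.3% against 54.0%) and in both at 1 (1.82% against 3.61%). The interval was clear of no change for 1 in each direction, against 11.6% of all. One was a region 87.6 kb upstream of Smad3 with 12 reads in TGF and 1 in siHK1 (-2.36, -8.30 to -0.13). The other lay 7019 bp upstream of an Eng start, with 1 and 9 reads (3.36, 1.02 to 9.32). The largest Eng region, 3276 bp upstream of a start, went the other way with 12 and 3 (-1.14, -3.77 to 0.59).

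Summed per gene, NFATC2 at Tgfbr1 had 14 reads in TGF and 20 in siHK1 over 6 regions (1.20, 0.16 to 2.31), with 7 and 9 across the start site (1.04, -0.53 to 2.72). Tgfbr2 had 6 and 10 over 3 regions (1.39, -0.17 to 3.18). These were the members 2-fold or more higher, with none lower among 7 tested, against 15.9% and 8.51% of all genes. Both fell short of 2-fold without scaling (0.50 and 0.69), as did Tgfbr1 over regions in the gene or the 3 kb before it alone (0.82). The interval was clear of 0 only for Tgfbr1, against 17.1% of all genes. Smad3 had the most NFATC2 reads, 115 and 58 over 21 regions (-0.28, -0.77 to 0.18), followed by Tgfbr3 with 42 and 25 (-0.04, -0.83 to 0.70), Smad2 with 42 and 21 (-0.28, -1.13 to 0.49) and Eng with 23 and 17 (0.27, -0.73 to 1.23). The largest single regions were the Tgfbr3 intergenic one with 21 and 7 reads (-0.82, -2.36 to 0.40) and one 190 kb from Smad2 with 21 and 6 (-1.03, -2.71 to 0.25). Tgfb3 had 8 and 6 reads (0.31, -1.52 to 2.0). Tgfb1 with 9 and 2 reads, Tgfb2 with 5 and 3 and Smad4 with 4 and 0 were too low to test.

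H3K9lc was listed at 7 of the 10 genes and at none of the 3 ligand genes, where 57.8% of all genes in the tables had an H3K9lc region. Only 1 of 31 member regions was annotated as promoter (3.23%, 0.08 to 16.7, against 6.78% of all H3K9lc regions), and 22 were distal intergenic (71.0% against 65.3%). By position, 8 lay in the assigned gene or the 3 kb before it and 23 elsewhere. Member regions held 589 reads in TGF (0.0236%, 0.0218 to 0.0256) and 337 in siHK1 (0.0237%, 0.0213 to 0.0264).

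The receptor with the most H3K9lc was Tgfbr3, with 206 reads in TGF and 104 in siHK1 over 3 regions (-0.17, -0.53 to 0.17). Of these, 191 and 94 lay in a region of 2393 bp within Tgfbr3, annotated as an exon of the transcript Gm42900, chr5:107255946-107258338 (-0.21, -0.58 to 0.15), and without it the ratio was 0.25. A small intronic region of Tgfbr3 had 4 and 9 reads (1.89, 0.14 to 4.13), and another had 11 and 1 (-2.13, -8.08 to 0.13). Tgfbr2 had 1 region with 12 and 3 reads (-1.02, -3.65 to 0.70), which lies 118.5 kb away in an intron of Gadl1. Eng had 1 region 2103 bp inside a start site with 8 and 7 reads (0.63, -1.08 to 2.28), the only promoter region of the set. Tgfbr1 had 1 and 2 reads in 1 region, too few to test.

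The SMAD genes carried 25 of the 31 H3K9lc regions, 4 of them in the gene or the 3 kb before it. Smad2 had 142 and 97 reads over 12 regions, all intergenic and at 28.8 kb or more from the assigned start (0.26, -0.13 to 0.64). Its largest region, 101 kb away, had 33 and 30 reads (0.68, -0.09 to 1.43), and the one 55.0 kb away had 19 and 3 (-1.67, -4.25 to -0.09). Smad3 had 156 and 87 reads over 9 regions (-0.03, -0.43 to 0.36), of which 84 and 50 lay 111 kb upstream (0.07, -0.47 to 0.59), and its 1 region within the gene had 2 and 3 reads. Smad4 had 64 and 37 over 4 regions (0.03, -0.60 to 0.63), with 27 and 18 in its largest, an intronic one (0.24, -0.72 to 1.14).

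Of 26 H3K9lc member regions with enough reads, 4 were 2-fold or more lower and 6 higher, against 10.5% and 9.16% of all tested, and without scaling 11 were lower and 1 higher, against 43.3% and 1.97%. The interval was clear of no change for 1 in each direction, against 6.62% of all. The median ratio was 0.02 against -0.09 over all, with 13 regions on each side of 0. A peak was marked only in TGF at 17 of the 31 regions (54.8% against 54.7% of all), only in siHK1 at 12 (38.7% against 24.2%) and in both at 2 (6.45% against 20.8%). Marks did not always follow the reads, as the Smad4 region with 27 and 18 reads was marked only in siHK1. Per gene, Tgfbr2 was 2-fold lower and none higher among 6 tested, against 4.01% lower and 4.11% higher of all genes. That ratio rests on 15 reads in all and was -0.89 with a pseudocount of 1. No member's interval was clear of 0, where 12.6% of all genes had one. H3K9lc regions overlapped a JUN region at 1 of 31 members (3.23% against 5.92% of all), a SMAD3 region at 3 (9.68% against 6.50%) and an NFATC2 region at 3 (9.68% against 6.58%). The JUN overlap was 99.2 kb from Smad2, with 8 and 5 JUN reads and 17 and 7 H3K9lc reads.

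In the table of NC and TGF, the NC library had 30 reads over the 29 member regions (0.0260% of its reads, 0.0175 to 0.0371) and the TGF library 525 (0.0227%, 0.0208 to 0.0247). The NC library was much the shallower, so 1 NC read counts as 10.5 scaled reads, against 0.525 for 1 TGF read, and passes the minimum by itself. Ratios here are TGF over NC. Smad2 had 12 reads in NC and 120 in TGF (-1.05, -1.86 to -0.01), Smad3 had 8 and 151 (-0.17, -1.10 to 1.15), Smad4 had 4 and 47 (-0.92, -2.22 to 1.17), Tgfbr3 had 4 and 186 (1.05, -0.16 to 3.11) and Tgfbr2 had 2 and 13 (-1.89, -3.77 to 1.57). Eng had 0 and 8 reads and was not tested. Tgfb1, Tgfb2, Tgfb3 and Tgfbr1 had no region in this table. The largest member region of NC held 7 reads, 101 kb from Smad2, where TGF had 33 (-2.16, -3.29 to -0.66). A region 197 kb from Smad2 had 2 and 3 reads (-3.84, -6.86 to -0.16).

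All 19 tested regions of this table had at least 1 NC read, and the 10 member regions with 0 NC reads, which had 5 to 19 TGF reads (ratios -0.86 to 0.96), were all under the minimum. The tested regions were thus those where NC had a read, so their counts and median describe that choice and are no result about the members. Of them, 14 were 2-fold or more lower and 1 higher in TGF, against 35.4% and 21.7% of all tested, of which 80.7% had an NC read. Their median ratio was -2.0, and over all 29 regions, with no minimum, it was -0.86. Scaled on shared peaks the split was 10 and 3, against 24.4% and 28.3% of all, and without scaling 2 and 13, against 3.64% and 88.6%. At 18 of the 19 regions NC had 3 reads or fewer. The interval was clear of no change for 2 lower regions and no higher one, against 4.05% of all. A peak was marked only in NC at 8 of the 29 regions (27.6% against 12.4% of all), only in TGF at 21 (72.4% against 85.9%) and in both at none. Per gene, Smad2 and Tgfbr2 were 2-fold or more lower and Tgfbr3 higher among the 5 with an NC read, against 21.7% and 16.0% of all genes. Each of the 5 passed the minimum by its NC reads alone, so these calls too are no result about the members. Only the interval of Smad2 was clear of 0, against 9.09%. Of the 12 NC reads of Smad2, 7 lay in the region 101 kb away. Scaled on shared peaks Smad2 was at -0.49, and with a pseudocount of 1 Tgfbr3 was at 0.90. The TGF library of this table is the one compared with siHK1, with the same reads at all 44088 regions of identical coordinates, so the tables are not independent.

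Other genes of the pathway were counted by the same rule from lists of latency and activation genes, inhibitors, activin and BMP receptors with their SMADs, and adaptors, in that order below. The shares over all genes are those given above for each antibody. None of them passed 2-fold for JUN in either direction, out of 12, 10, 12 and 5 tested, or for H3K9lc, out of 7, 7, 7 and 2. Smaller JUN differences included Ltbp2, a latent TGF-β binding protein gene, with 904 and 299 reads (-0.70, -0.90 to -0.51), Ltbp4 with 875 and 336 (-0.49, -0.67 to -0.31) and Crebbp, which encodes a SMAD coactivator, with 135 and 103 (0.50, 0.12 to 0.88). For SMAD3, 4 of 11 latency and activation genes were 2-fold or more higher in siHK1 and none lower, among them Ltbp2 with 20 and 59 reads (2.03, 1.30 to 2.87). Among the 10 inhibitors 3 were higher, including Pmepa1, a feedback inhibitor, with 122 and 188 reads (1.12, 0.78 to 1.46). Of the 12 activin and BMP genes 5 were higher and 1 lower, Acvr2a with 102 and 27 reads (-1.40, -2.09 to -0.80), and of 4 adaptors 1 was higher. The medians of these lists were 0.49, 0.69, 0.71 and 0.36, against 0.33 for the 9 tested members and 0.23 for all genes. For NFATC2 the counts higher were 2 of 11, 0 of 9, 3 of 10 and 1 of 4, with none lower.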

How the data were processed

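Mouse cardiac fibroblasts had been profiled by CUT&Tag, with 1 library for each condition and antibody, and each library's title and description gave its group. The study's methods state mapping to GRCm39 with Bowtie2 and peak calling with MACS2, whereas the submitters' processing notes name mm10 and BWA 0.7.12. Transcript coordinates matched GENCODE vM21 for 48676 of 48676 found there (49132 were named), and 0 regions ran past a GRCm38 chromosome end, so coordinates are given on GRCm38, counted from 1. The authors deposited, for each region, the raw read counts of both libraries, which were used as deposited, and a peak mark of 0 or 1 made by the authors. They assigned each region to the gene of the nearest transcript start, and distances are to that start. The tables also hold the authors' normalized means, log2 ratio, p-values and call for each comparison, none of which was used. The library titled TGF with no antibody named, and 1 column that matches no listed sample, were not used.

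Counts were scaled to equal totals over all listed regions, 0.5 was added, and log2 ratios were taken for regions and genes with at least 10 scaled reads. Intervals are exact (Clopper-Pearson) at 95%. With 1 library a group no test was made, and a count of regions or genes past 2-fold stands beside the same share over all of the table. Overlaps needed 1 shared bp. Motif letters were searched in the central 200 bp on both strands. The ratio and call were run on simulated reads with known changes put in and counting error only. That run says nothing about PCR copies or differences between libraries. Alternatives were another scaling, no scaling, a pseudocount of 1, no minimum or 20 scaled reads, promoter regions only, no largest region, a larger required overlap (50% of the shorter region), and peak marks with at least 10 reads. The genes described were the 10 members, with every tested region past 2-fold whose interval was clear of no change. Regions of most reads or nearest a start site are given for many, but not all, members and antibodies. The members and lists were chosen with earlier results of these data known. Analyses used Python 3.11.15, pandas 2.3.3, NumPy 2.4.6, SciPy 1.17.1 and matplotlib 3.10.9.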

Additional observations from a re-analysis of the deposited data

Results flagged for a closer look

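The summed ratios of Tgfbr1 pointed in opposite directions for different antibodies. Its ratio of siHK1 over TGF was -0.35 for JUN, and 2.68 for SMAD3 and 1.20 for NFATC2. The counting interval of each was clear of 0. The difference between the antibodies was not tested, since each rests on 1 pair of libraries, and the SMAD3 and NFATC2 values rest on 24 and 34 reads in all. Summed ratios on opposite sides of 0 for some pair of antibodies, both with intervals clear of it, were found for 1 of 10 members, for 5 of 38 other pathway genes tested (13.2%) and for 6.74% of all genes, so the pattern is not particular to Tgfbr1. The other pathway genes were Acvr1b, Ltbp1, Ltbp2, Ltbp4 and Pmepa1. Acvr1b, an activin type I receptor gene, had -0.46 for JUN, 1.97 for SMAD3 and 1.63 for NFATC2.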

How the results depend on the processing

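No paired analysis was possible because there was 1 library per condition and antibody, and for the same reason no replicate could be left out. Without scaling, lower and higher regions numbered 11 and 1 for H3K9lc (median -0.80, against -0.90 over all regions), 43 and 4 for JUN (median -0.90, against -0.92), and 2 and 13 for TGF over NC, whose median turned to 2.32 (3.87 over all) as did Tgfbr2 (2.43) and Smad2 (3.27). For NFATC2 1 was then higher. The cause was not tested. On shared peaks 3 were higher for TGF over NC. With at least 20 scaled reads, lower and higher regions numbered 0 and 1 of 10 for H3K9lc, 0 and 3 of 6 for SMAD3, and 1 and 0 of 3 for NFATC2. JUN then had 2 higher and TGF over NC 4 lower. With no minimum, SMAD3 had 11 lower and 23 higher, and NFATC2 16 and 20. A pseudocount of 1 left 2 lower for SMAD3 and 0 higher for TGF over NC. Only regions in the gene or the 3 kb before it, an alternative chosen after seeing the data, gave 1 lower and 1 higher for H3K9lc, 4 higher for JUN, 2 lower and 3 higher for SMAD3, 0 lower for NFATC2, and 4 lower for TGF over NC. These counts are over fewer regions, and whether that alone makes them smaller was not tested. A required overlap of 50% of the shorter region left 0 H3K9lc regions on JUN. Peak marks with at least 10 reads left, in the first library only, 11 regions for H3K9lc, 5 for SMAD3, 7 for NFATC2 and 0 for NC. In the second library only they left 2, 5 for JUN, 5 for SMAD3 and 0 for NFATC2, which had 0 in both. Apart from the scalings, these counts of regions have no share over all regions beside them and are no result about the members. Gene sums moved beyond their counting interval, or turned sign, as follows. Without scaling 16 of 37 stayed within it, with 0 of 10 for JUN, and 17 turned sign. On promoter regions only 8 of 22 moved and 7 turned, without the largest region 6 of 32 and 7, and on regions in the gene or the 3 kb before it 7 of 34 and 8. On shared peaks 0 of 37 moved and 4 turned, and with a pseudocount of 1 both were 0. Depth limits NC most, where a median member region had 1 read, and then SMAD3 and NFATC2, with 3 and 4 in TGF.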
